A study of Mus musculus with 6 samples.

Results

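The messenger RNAs of the mitochondrial genome were followed in microglia with and without the transcription factor Lyl1. The 8 transcripts were chosen by symbol from the deposited count table: mt-Nd1, mt-Nd2, mt-Nd3, mt-Nd4, mt-Nd5, mt-Nd6, mt-Co1 and mt-Cytb. They are 8 of 48587 genes in the table and 8 of its 37 mitochondrial entries. All 8 passed the filter on low counts and entered the test, with reads in every sample. No sample had a read for the remaining 5 protein-coding entries of that genome, which in map order are mt-Co2, mt-Atp8, mt-Atp6, mt-Co3 and mt-Nd4l.

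Microglia are the macrophages that live in brain tissue. Each sample held about 1000 microglia sorted by flow cytometry from C57BL/6 mice at postnatal day 42, and polyadenylated RNA was sequenced from 3 samples labelled wildtype and 3 labelled Lyl1 KO. Nothing in the labels gives the knockout allele, the sorting gate or whether each sample is a separate animal, so every p-value here is set against differences among tubes of sorted cells, which can be purely technical. In bulk RNA, fewer mitochondria, less mitochondrial RNA per cell and more nuclear RNA per cell cannot be told apart. Samples had 12753945 to 27378614 reads assigned to genes (called gene reads below) and 12827 to 15652 genes detected. Summed levels of 10 microglia markers ranged in wild type from 42314 to 46658 CPM (reads per 1000000 gene reads, with library scaling by TMM) and among knockout samples from 41453 to 45132. Lyl1 itself had 683, 1399 and 839 reads in the wild-type samples against 205, 237 and 410 in the knockout samples (edgeR quasi-likelihood test, log2 fold change -2.14, SE 0.98, adjusted p = 0.9999), lower in 3 of 3 knockout samples.

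The mitochondrial genome is a small circle with a heavy and a light strand, each copied by the mitochondrial RNA polymerase into long transcripts that span many genes. Transfer RNAs lie between most of the coding genes, and their excision frees the messenger RNAs, most of which then receive short poly(A) tails. All of its proteins are subunits of the respiratory chain or of ATP synthase, where they meet partners encoded in the nucleus. In microglia, as in other macrophages, the balance of oxidative phosphorylation and glycolysis shifts with activation.

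On GRCm38 chromosome M, the heavy-strand members are mt-Nd1 (2751 to 3707), mt-Nd2 (3914 to 4951), mt-Co1 (5328 to 6872), mt-Nd3 (9459 to 9806), mt-Nd4 (10167 to 11544), mt-Nd5 (11742 to 13565) and mt-Cytb (14145 to 15288), each an intronless gene on the plus strand of the annotation. The light-strand member, mt-Nd6, lies on the minus strand at 13552 to 14070, and its last 14 bases overlap the end of mt-Nd5. The library kit does not mark strand, so light-strand reads of mt-Nd6 cannot be told from heavy-strand RNA that crosses the same bases.

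The 3′ ends of 5 members are shown because the RNA was selected through its poly(A) tail. Whether each member, mt-Nd6 included, was captured through such a tail was not tested. The capitals mark the bases of the stop codon that the genome itself encodes. mt-Cytb and mt-Nd4 have 1 base past their last whole codon, the T of a stop codon that the tail completes. The other 6 members end in a whole TAG or TAA as annotated. For mt-Nd1 and mt-Nd2 the last 2 bases of the TAG are also annotated as the start of the next tRNA, mt-Ti and mt-Tw.
mt-Cytb, chrM:15259-15288, plus strand: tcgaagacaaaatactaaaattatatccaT
mt-Nd4, chrM:11515-11544, plus strand: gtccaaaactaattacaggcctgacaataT
mt-Nd1, chrM:3678-3707, plus strand: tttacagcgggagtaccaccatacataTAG
mt-Co1, chrM:6843-6872, plus strand: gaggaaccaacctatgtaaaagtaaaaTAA
mt-Nd6, chrM:13552-13581, minus strand: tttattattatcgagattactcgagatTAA

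Stretches of the mitochondrial genome also exist in the nuclear genome, and reads from such a copy look alike. GENCODE annotates 7 pseudogene models in a row on chromosome 1, from 24611535 to 24616197, all on the minus strand, that correspond in order to part of mt-Co1, then mt-Co2, mt-Atp6, mt-Co3, mt-Nd3, mt-Nd4l and part of mt-Nd4. The pair below shows the start of mt-Nd3 and of its nuclear copy Gm28438, which differ over 345 aligned bases at 1 position, T3C (mitochondrial base first, position counted from 1 at the 5′ end of the gene). That base is in capitals.
mt-Nd3, chrM:9459-9518, plus strand: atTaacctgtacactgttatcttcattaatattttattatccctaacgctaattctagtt
Gm28438, chr1:24613060-24613119, minus strand: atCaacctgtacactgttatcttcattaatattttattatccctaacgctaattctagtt
The next pair shows the start of mt-Co2, which had no reads, and of its copy Gm28661, with 0 differing bases of 681 aligned.
mt-Co2, chrM:7013-7072, plus strand: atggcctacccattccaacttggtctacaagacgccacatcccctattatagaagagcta
Gm28661, chr1:24615506-24615565, minus strand: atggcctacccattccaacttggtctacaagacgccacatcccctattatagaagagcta

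Of the 5 protein-coding entries without reads, 4 have a sequence almost wholly present in these nuclear models. mt-Atp8 has 0 reads with no shared window, and mt-Nd3 has reads although its sequence is shared to nearly the same extent. Sequencing ran for 50 cycles, so each transcript was divided into all its 50-base windows, and a window was called shared when the same 50 bases occur, on either strand, in an annotated transcript outside the mitochondrial genome. Of the windows of mt-Co2, 100% were shared, of mt-Co3 99.9%, of mt-Atp6 99.5% and of mt-Nd4l 98.8%. Aligned to their copies, mt-Co2, mt-Co3, mt-Atp6 and mt-Nd4l had 0 differing bases. The unshared windows of mt-Co3, mt-Atp6 and mt-Nd4l reach past the annotated end of the copy. A count of 0 allows up to 3 reads, which is 0.110 to 0.235 RPM here (reads per 1000000 gene reads, without TMM scaling), for counting error only.

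Among the 8 members with reads the shared part ran from none to nearly everything. mt-Nd3 shared 293 of 299 windows (98.0%) and had 12 to 30 reads per sample. mt-Nd4 shared 62.2% and mt-Co1 51.1%. The part of mt-Nd4 with a copy was its first 876 bases, and that of mt-Co1 included its last 492. Over those 492 bases mt-Co1 and its chromosome 1 copy Gm29216 differ at 6. mt-Nd2 and mt-Nd5 shared 8.19% and 7.61%, and mt-Nd1, mt-Nd6 and mt-Cytb shared 0 windows. The 7 nuclear models on chromosome 1 together held 3, 5 and 0 reads in wild type against 2, 2 and 4 in knockout, so these entries were near 0 as well. Of all 11 nuclear models examined, Gm13340 on chromosome 2 had the most reads, 42 over the 6 samples. Gm11808 on chromosome 4 had 32 and Gm13341 on chromosome 2 had 25. How the authors treated reads that match several places is not given in the sources used here, and the part of these copies in the zeros was not tested. mt-Atp8 shared 0 of 155 windows. Its place corresponds to a 233-base interval on chromosome 1 between Gm28661 and Gm10925 with no model in the cluster, against 230 bases between mt-Co2 and mt-Atp6, and the sequence of that interval was not analysed here.

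**Figure D1:**
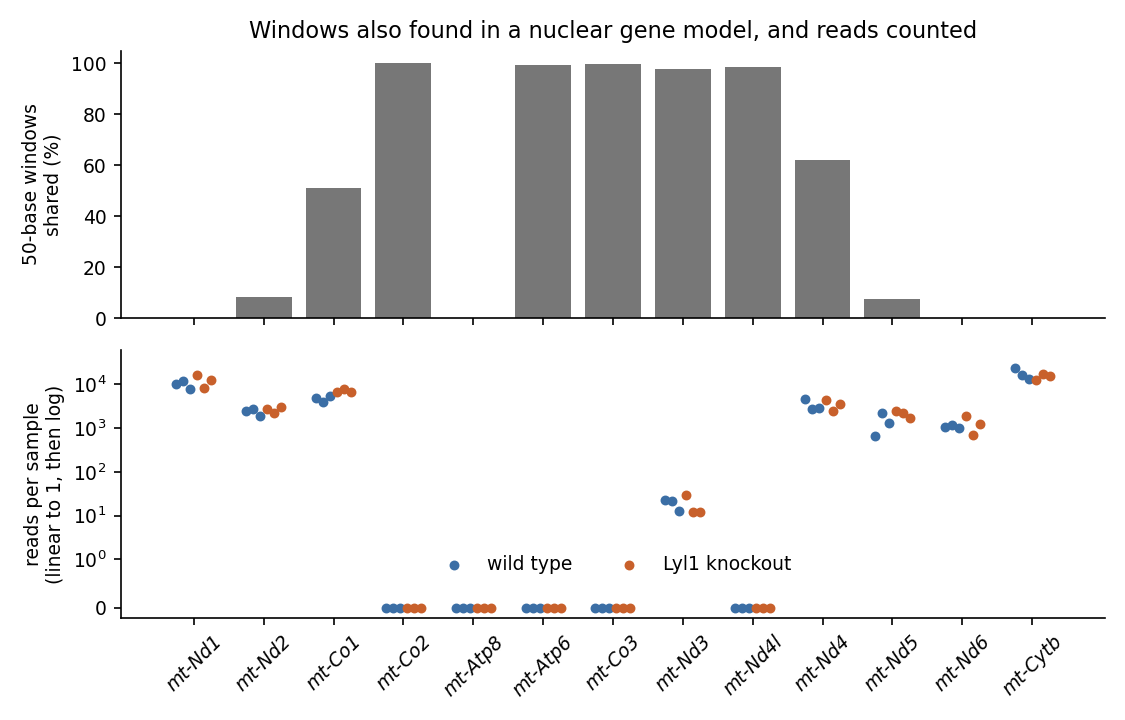
Percentage of 50-base windows also found in an annotated transcript outside the mitochondrial genome (upper panel) and reads per sample (lower panel, linear up to 1 and logarithmic above) for the 13 protein-coding genes in their order along the genome, blue for wild type and orange for knockout. The 5 entries at 0 reads stand together with mt-Nd3, at 12 to 30 reads, between mt-Co1 and mt-Nd4.

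The 8 members together took a small part of each library, and the genotypes did not separate. Their summed reads numbered 48014, 41488 and 33379 in wild-type samples 1 to 3 and 47084, 40970 and 44444 in knockout samples 1 to 3. As a share of gene reads this was 0.376% (95% Wilson interval 0.373 to 0.380), 0.152% (0.150 to 0.153) and 0.170% (0.168 to 0.172) in wild type. In knockout it was 0.212% (0.210 to 0.213), 0.213% (0.211 to 0.215) and 0.163% (0.161 to 0.164). Wild-type sample 1 stood apart, 1.76 times above the next highest sample, and the other 5 samples spanned both genotypes. The means were 0.233% ± 0.125 in wild type and 0.196% ± 0.0287 in knockout (SD, n = 3 each), and with wild-type sample 1 left out, the wild-type mean of 0.161% lay below that of the knockout. Reads are not single molecules after PCR, and these intervals and floors cover counting error only.

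The summed count varied less than the depth. Between the lowest and the highest sample it differed 1.44-fold, while gene reads differed 2.15-fold. Wild-type sample 1 had the fewest gene reads, 12753945, and the most reads from the 8 members. Wild-type sample 2 had the most gene reads, 27378614, and the lowest share.

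**Figure D2:**
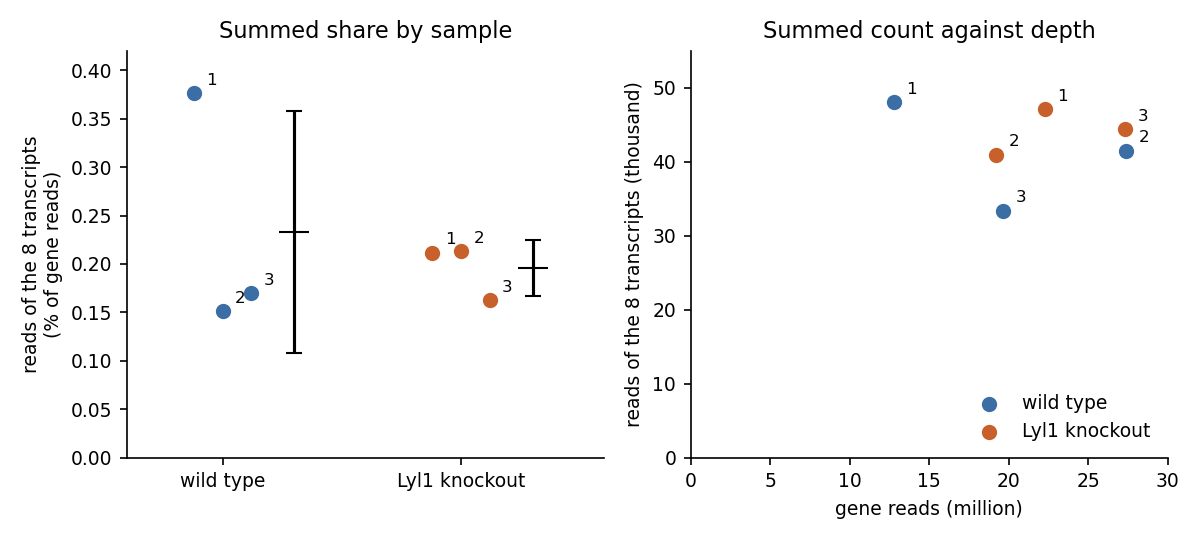
Left, reads of the 8 transcripts as a percentage of gene reads, 1 point per sample numbered by replicate, with mean and SD as bars. Right, the summed reads against gene reads, both axes linear: wild-type sample 1 pairs the lowest depth with the highest summed count, 48014 reads.

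Markers of other cells were uneven in the same sample. In TMM-scaled CPM summed over each list, wild-type sample 1 was highest of the 6 samples for 6 border macrophage markers (95.2, against 0.353 to 23.5 elsewhere), 6 oligodendrocyte markers (224, against 40.6 to 92.2) and 6 endothelial markers (153, against 25.9 to 61.2). Its sum of the 10 microglia markers was also the highest (46658, against 41453 to 45771 elsewhere). Snap25, Nefl and Gad1 of the 8 neuronal markers and Gfap, Aldh1l1 and Aldoc of the 6 astrocyte markers had 0 reads in all samples. So had Mobp and Cldn11 of the oligodendrocyte list, led by Mag, and Cldn5 and Ly6c1 of the endothelial list, led by Pecam1. The neuronal list summed to at most 0.876 CPM for wild type and 7.57 CPM for knockout, and the 6 astrocyte markers to 175 to 407 and 169 to 256 CPM, led by Slc1a3 and highest in wild-type sample 1. Of 5 red cell genes, led by Hbb-bs, the sums reached 1.23 CPM at most in wild type but were 226, 64.8 and 0.242 CPM in knockout samples 1 to 3. The 6 monocyte and neutrophil markers summed to at most 6.87 CPM and the 7 lymphocyte markers to at most 1.37 CPM in any sample. The part of these cells in the mitochondrial values was not tested.

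Per length, mt-Cytb and mt-Nd1 were the highest members and mt-Nd3 the lowest. These levels are RPM per kb of gene, as mean ± SD over all 6 samples. mt-Cytb was at 760 ± 455 and mt-Nd1 at 566 ± 185, with overlapping ranges and mt-Cytb above mt-Nd1 in 5 of 6 samples. mt-Co1 followed at 188 ± 59.5, below mt-Nd1 in all 6 samples. mt-Nd4 (129 ± 70.6), mt-Nd2 (119 ± 32.6) and mt-Nd6 (110 ± 40.5) overlapped each other, and mt-Nd4 overlapped mt-Co1. mt-Nd5 was at 44.7 ± 13.7, below mt-Nd6 in all 6 samples, and mt-Nd3 at 2.7 ± 1.5, lower than mt-Nd5 in all 6 and 16.5-fold below it in the mean.

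Part of that order changed with the windows a read could occupy without a nuclear match. Dividing reads by unshared windows instead of length, a comparison added after the values were seen, gave a mean of 15.1 reads per window for mt-Cytb, 12.3 for mt-Nd1, 8.06 for mt-Co1, 6.87 for mt-Nd4, 3.08 for mt-Nd3, 2.78 for mt-Nd2, 2.49 for mt-Nd6 and 1.08 for mt-Nd5. mt-Nd3 moved from the lowest place to the fifth. Its level was 0.356% of that of mt-Cytb per kb and 19.8% per unshared window, though it has only 6 such windows, and 3 of them are unshared because the copy's annotation ends before the last 3 bases of the gene. The order of mt-Cytb, mt-Nd1, mt-Co1 and mt-Nd4 was the same on both scales.

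**Figure D3:**
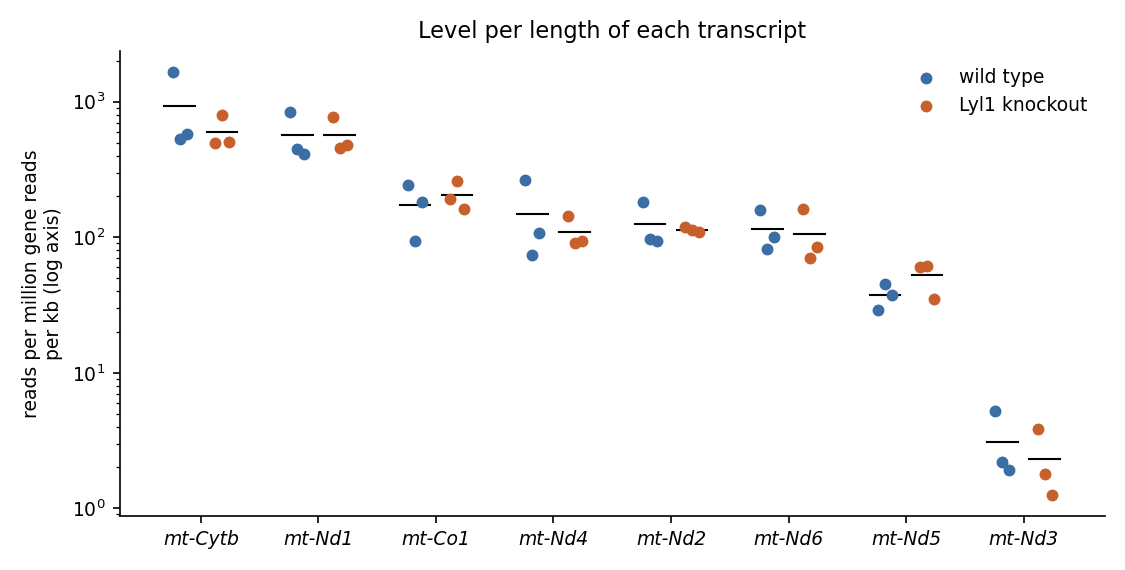
RPM per kb (reads per 1000000 gene reads, log axis) for each member, ordered by mean level, with 1 point per sample (blue wild type, orange knockout) and the group mean as a line. The genotypes overlap for all 8 members, and mt-Nd3 lies 16.5-fold below mt-Nd5 in the mean.

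No member passed the test between genotypes. On TMM-scaled levels the groups lay apart without overlap for 0 of 8 members, against 11.2% of the 10394 genes tested (5.19% lower and 5.97% higher in knockout). In reads before any scaling, mt-Co1 was higher in every knockout sample than in any wild-type sample, 1 of 8 members, and 0 of 8 were lower throughout, against 4.62% and 1.18% of the 22005 genes with a read. The edgeR quasi-likelihood test called 0 of 8, all with adjusted p = 0.9999, and 0 had an unadjusted p under 0.05. The same test called 0% of all genes at the adjusted threshold of 0.05 and 2.84% at an unadjusted p under 0.05 (1.67% lower and 1.16% higher), while DESeq2 called 52 genes and 0 members. The median log2 fold change of the 8 members was -0.26, against -0.03 over all tested genes. Of the 8, 6 were lower and 2 higher in knockout, where 51.3% of all tested genes were lower. That count was 5 under upper-quartile scaling, scaling by library size and limma-voom, where mt-Nd1 changed sign. Exact 2-sided permutation of the shares gave p = 0.3 to 1.0 over the 8 members, with 0.1 the smallest that 3 against 3 samples allow.

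The direction of most members rested on wild-type sample 1. Without it, 8 of 8 members were higher in knockout, with a median log2 fold change of 0.21 against 0.07 over all genes, and none was called (edgeR adjusted p = 0.9989 for each). In the same fit 6124 of 11648 tested genes were higher. Relative to the wild-type mean, the median member lay at 0.71, -0.29 and -0.38 on the log2(CPM + 1) scale in wild-type samples 1 to 3 and at 0.16, -0.26 and -0.40 in knockout samples 1 to 3. The tests do not show that the levels are equal. The standard errors of the log2 fold changes were 0.38 to 0.72 for 7 members and 1.12 for mt-Nd3.

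**Figure D4:**
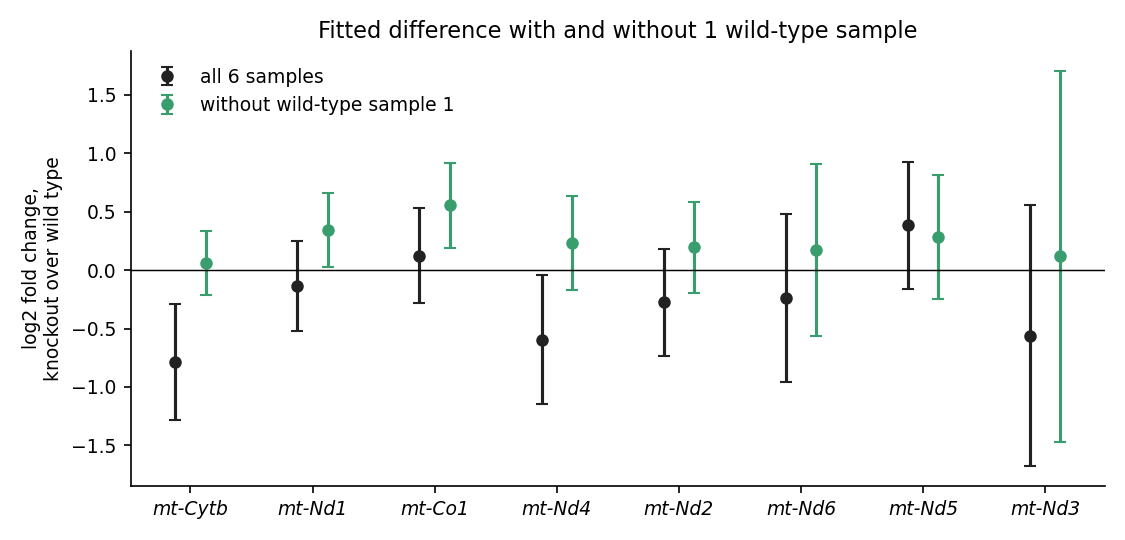
Log2 fold change of knockout over wild type with its standard error from the edgeR fit, for all 6 samples (black) and without wild-type sample 1 (green). With all samples 6 of 8 members lie below 0, and without that sample all 8 lie above 0.

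Complex I, the entry point of electrons from NADH, takes 6 of the members. mt-Nd1, which borders the quinone-binding site, was at 798, 430 and 396 RPM in wild-type samples 1 to 3 against 737, 434 and 456 in knockout samples 1 to 3. Wild-type sample 1 and knockout sample 1 were high and the other 4 samples lay close together. The means were 541 ± 223 and 542 ± 169 RPM (SD, n = 3 each), and the edgeR log2 fold change was -0.14 (SE 0.38).

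mt-Nd2, mt-Nd4 and mt-Nd5 encode the proton-pumping subunits of the membrane arm, which resemble one another and sodium-proton antiporters. mt-Nd2 was at 190, 100.3 and 97.8 RPM in wild type against 123, 117 and 113 in knockout. Its knockout samples, at 118 ± 4.82 (SD, n = 3), lay between wild-type sample 1 and the other two wild-type samples. mt-Nd4 was at 365, 102 and 149 RPM in wild type against 197, 125 and 128 in knockout. Wild-type sample 1 was again highest, and the means, 205 ± 140 and 150.3 ± 40.6, differed by less than the wild-type SD (log2 fold change -0.60, SE 0.55).

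mt-Nd5 was the member for which wild-type sample 1 was lowest, though the other members did not share 1 order of samples either. mt-Co1 was highest in knockout sample 2 and mt-Nd6 in knockout sample 1. It was at 52.8, 82.7 and 68.1 RPM in wild type against 110.3, 112 and 63.5 in knockout, so that wild-type sample 1, the highest sample for mt-Nd1, mt-Nd2, mt-Nd3, mt-Nd4 and mt-Cytb, was the lowest here. Knockout samples 1 and 2 lay above all wild-type samples and knockout sample 3 among them. The log2 fold change was 0.38 (SE 0.54), and the exact permutation p of the share was 0.3. In log2(CPM + 1) over the 6 samples, the correlation of mt-Nd5 with each of the other members was negative, from r = -0.34 with mt-Nd4 to r = -0.02 with mt-Co1. It was also weak with mt-Nd1 (-0.02) and mt-Nd3 (-0.04). All 21 pairs among the other 7 members had a positive r, up to 0.95 for mt-Nd1 with mt-Nd3. These 6 points share library and depth, and r is given as a description.

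mt-Nd3, a small subunit whose loop near the quinone site moves as the complex switches between active and resting forms, gave 23, 21 and 13 reads in wild type against 30, 12 and 12 in knockout. That is 1.8, 0.767 and 0.662 RPM against 1.35, 0.625 and 0.439. Its 95% Wilson intervals reached from 36.4% to 58.8% of the value on either side, against at most 7.56% for every other member, and the genotypes overlapped. mt-Nd6, the light-strand gene, was at 83.0, 42.8 and 52.2 RPM in wild type against 84.0, 36.4 and 44.3 in knockout. Sample 1 of each genotype was high and the other 4 samples were lower, with log2 fold change -0.24 (SE 0.72). It made up 2.20%, 2.82% and 3.07% of the members' reads in wild type against 3.97%, 1.71% and 2.72% in knockout, so its part was at its highest and its lowest within the knockout samples.

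mt-Cytb encodes cytochrome b, the subunit of complex III that passes electrons between the quinone sites. It was at 1899, 611 and 657 RPM in wild type against 567, 906 and 573 in knockout. Wild-type sample 1 was far above the rest, and the remaining 5 samples were mixed between genotypes. The means were 1056 ± 731 and 682 ± 194 RPM (SD, n = 3 each), with log2 fold change -0.78 (SE 0.50) and an unadjusted p of 0.155, the smallest among the members. Without wild-type sample 1 the log2 fold change was 0.06 (SE 0.28).

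mt-Co1 encodes the catalytic subunit of complex IV, which hands electrons to oxygen. It was at 375, 146 and 280 RPM in wild type against 295, 402 and 249 in knockout. Knockout sample 2 was the highest and wild-type sample 2 the lowest. The means were 267 ± 115 and 315 ± 78.1 RPM, with log2 fold change 0.12 (SE 0.40). The fold change turned to -0.13 without wild-type sample 2 and to -0.07 without knockout sample 2.

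As a part of the members' reads, a quantity that does not depend on library scaling, mt-Cytb had the lower mean in knockout (34.8% ± 7.84 against 43.1% ± 6.40, SD, n = 3 each) and mt-Co1 the higher, 4.02 percentage points above wild type. mt-Nd1 (3.45 points), mt-Nd5 (1.17), mt-Nd2 (0.270) and mt-Nd6 (0.102) also had higher means in knockout. mt-Nd4 (-0.709) and mt-Nd3 (-0.00582) had lower ones. The parts share 1 total, so they do not move independently. mt-Cytb made up 50.5%, 40.3% and 38.6% in wild type against 26.8%, 42.5% and 35.2% in knockout. mt-Co1 made up 9.96%, 9.63% and 16.5% in wild type against 14.0%, 18.8% and 15.3% in knockout. Knockout sample 2 lay among the wild-type samples for mt-Cytb, and wild-type sample 3 among the knockout samples for mt-Co1, so the genotypes overlapped for both (exact permutation p = 0.3 for each). mt-Nd1 ranged from 20.3% to 34.9%, mt-Nd4 from 5.88% to 9.70%, mt-Nd2 from 5.04% to 6.94%, mt-Nd5 from 1.40% to 5.46% and mt-Nd3 from 0.0270% to 0.0637% over the 6 samples. Permutation p for the other 6 members ran from 0.6 to 1.0.

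**Figure D5:**
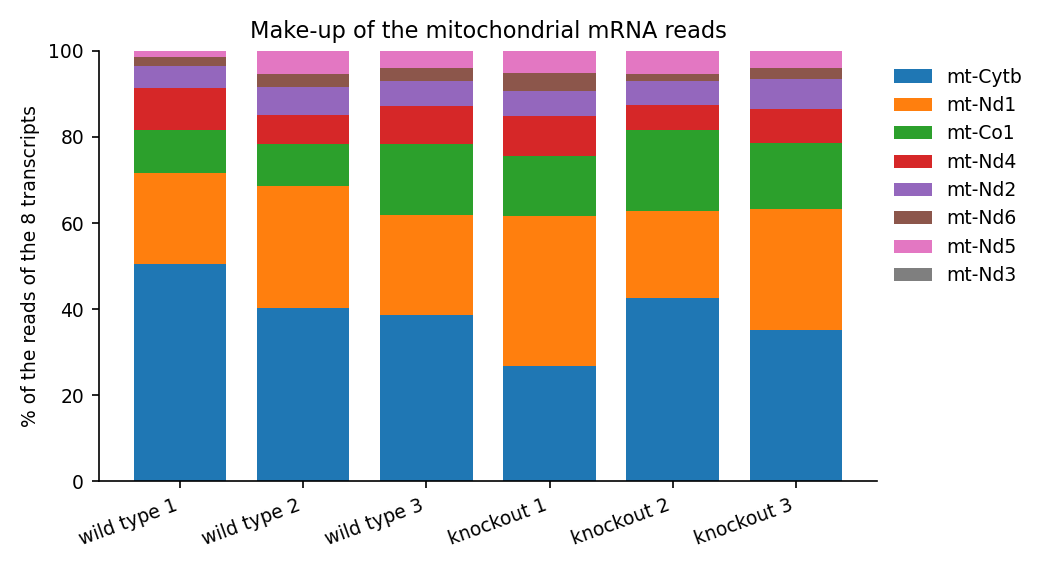
Each member as a percentage of the reads of the 8 transcripts, 1 stacked bar per sample, in the order of their level per kb. mt-Cytb takes 26.8% in knockout sample 1 and 50.5% in wild-type sample 1, and mt-Nd3 is too small to see.

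The ribosomal RNAs of the mitochondrial genome, copied from the heavy strand ahead of mt-Nd1, were read alongside the members. mt-Rnr2, the large-subunit RNA, had 19269, 16599 and 17980 reads in wild type against 18702, 10363 and 15444 in knockout, and mt-Rnr1, the small-subunit RNA, had 1119, 949 and 795 against 1910, 453 and 927. Together they gave 0.425, 0.423 and 0.562 reads per member read in wild type against 0.438, 0.264 and 0.368 in knockout. Knockout sample 1 overlapped wild type. The log2 fold change of mt-Rnr2 was -0.77 (SE 0.38, edgeR unadjusted p = 0.0768, adjusted p = 0.9999), and that of mt-Rnr1 was -0.32 (SE 0.86). Without wild-type sample 1, a check added after the values were seen, they were -0.26 (SE 0.28) and 0.31 (SE 0.91).

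Nuclear genes of mitochondrial transcription, RNA processing and biogenesis were split between lower and higher in knockout, while replication genes and translation factors were more often lower. Of 10 tested genes of mitochondrial transcription 5 were lower and 5 higher, of 17 of RNA processing and stability 8 and 9, of 13 of DNA replication and nucleotide supply 9 and 4, of 11 translation factors 9 and 2, and of 7 regulators of biogenesis 3 and 4. Median log2 fold changes were -0.22 for replication and -0.32 for translation. Over all tested genes the median was -0.03, and 51.3% were lower. Without wild-type sample 1, also added after the values were seen, 3 transcription genes were lower and 7 higher (median log2 fold change 0.61, against -0.22 with all samples), and of 18 processing genes 6 and 12 (0.41 against 0.08). The same fit gave 8 and 5 for replication (-0.44), 8 and 3 for translation (-0.31) and 3 and 4 for biogenesis (0.35). Over all genes tested in it, 5524 were lower and 6124 higher (0.07). The translation factors were 6 lower and 5 higher under upper-quartile scaling, and the median of the transcription list turned from -0.22 to 0.31 and that of the replication list from -0.22 to 0.81 with limma-voom. edgeR called 0 in each list, and 0 of these genes had an unadjusted p under 0.05. Polrmt, the RNA polymerase that transcribes the mitochondrial genome, had 3, 1 and 291 reads in wild type against 2090, 1214 and 534 in knockout (log2 fold change 3.6, SE 2.03, edgeR adjusted p = 0.9999). Lrpprc, which with Slirp stabilises mitochondrial messenger RNAs, had 9, 6 and 592 reads against 821, 1821 and 1971, while Slirp had 1185, 1459 and 984 against 226, 426 and 1295. In TMM-scaled CPM, 2 of 10 transcription genes lay apart and higher in knockout (Polrmt and Mterf1a) and 0 lower, and of the 17 processing genes 2 lay apart higher, Lrpprc among them, and 1 lower, Slirp. Of the 13 replication genes 1 lay apart higher, of the 7 biogenesis regulators 2 and of the 11 translation factors 0, with 0 lower in these lists. Over all tested genes 5.97% lay apart higher and 5.19% lower. Wild-type samples 1 and 2, lowest for Polrmt and Lrpprc, had 13045 and 12827 genes detected against 15652 in wild-type sample 3, while knockout sample 1, with the most Polrmt reads, had 13085. The part of detection in these counts was not tested.

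Nuclear subunits of the complexes that the members belong to were mostly lower in knockout. Of 36 complex I subunits 31 were lower and 5 higher (median log2 fold change -0.54). Of 9 of complex III 7 were lower and 2 higher (-0.43), and of 11 of complex IV 9 and 2 (-0.53). The median over all tested genes was -0.03, and 51.3% of them were lower. Under the other scalings and limma-voom, 28 to 32 of 36, 6 to 7 of 9 and 8 to 10 of 11 were lower, an alternative added after the values were seen. edgeR called 0 of them. At an unadjusted p under 0.05 (edgeR), 1 complex I and 2 complex IV subunits were lower, where 1.67% of all tested genes were. On TMM-scaled levels 6 of 36 complex I, 2 of 9 complex III and 2 of 11 complex IV subunits lay apart lower, and 0 higher. Of all tested genes 5.19% lay apart lower and 5.97% higher. The complex I subunit Ndufc1 had 654, 2326 and 431 reads in wild type against 125, 240 and 247 in knockout, and Cox7b of complex IV had 1962, 2756 and 1573 against 1183, 474 and 1372. Without wild-type sample 1, 27 of 36 complex I, 7 of 9 complex III and 10 of 11 complex IV subunits were lower, while the mitochondrially encoded members were all higher. Of all 11648 genes tested in that fit, 5524 were lower and 6124 higher. Whether nuclear and mitochondrial subunits differed from each other was not tested.

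Among 3498 named nuclear genes at a mean of 50 CPM or more, the ones whose log2(CPM + 1) most resembled that of the summed members over the 6 samples were Cnih4 (Pearson r = 0.99), Aamp (0.99), Uqcrc1 (0.98), Arf1 (0.98) and Mrpl16 (0.97). Uqcrc1, a core subunit of complex III, was at 339, 147 and 163 CPM in wild type against 199.9, 179 and 151 CPM in knockout. Mrpl16, a protein of the mitochondrial ribosome, was at 171, 42.5 and 28.5 CPM against 39.2, 50.0 and 29.1. Both shared the high wild-type sample 1. The genes least like the members were Ppm1m, Slc36a1, Ssrp1, Sh3gl1 and Ldb1, each at r = -0.99, and all were lowest in wild-type sample 1. These values describe likeness over 6 points that share library and depth.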

How the data were processed

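RNA from sorted microglia, 3 wild-type and 3 Lyl1 knockout samples, had been amplified from 0.3 to 1.0 ng over 14 or 15 PCR cycles with a SMARTer kit, tagmented with Nextera XT and sequenced as single reads, per the labels' protocols. The authors deposited raw counts of reads per gene symbol, without normalization. CASAVA 1.8.2, STAR 2.5.2b, Subread, featureCounts 1.5.1, limma 3.28.21 and GRCm38 are named in the submitters' processing notes, without roles. No source used here names the annotation or the strand setting.

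The 92 spike-in entries, with 21 to 66 reads per sample, were left out, and scaling by them was not attempted. Genes were kept with filterByExpr (minimum count 10, minimum total 15), leaving 10394, scaled by TMM and tested with edgeR 4.0.16 (quasi-likelihood, 2-sided, genotype alone, Benjamini-Hochberg over all genes) in R 4.3.3, with standard errors taken from its F statistic. The fit was tried first on simulated data whose spread was far below that of these samples. That trial does not show its power here. The common biological coefficient of variation, edgeR's estimate of the spread between samples, was 1.27. Within genotypes, samples differed far beyond counting noise (chi-square per degree of freedom of 245 or more). Alternatives used DESeq2 1.42.0, limma-voom 3.58.1, other scalings and filters, a replicate block and each sample left out. Gene positions and transcript sequences came from GENCODE M21 on GRCm38. Members, lists and the naming rule (the 8 members, the lists' genes with the smallest p, the genes most and least like the members) were chosen with earlier results of these data known.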

Additional observations from a re-analysis of the deposited data

How the results depend on the processing

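No member was called under any of the 15 alternatives fitted across all genes. The count of all genes called was 0 under 13 of them, 8 without the filter on low counts (3 higher, 5 lower) and 52 with DESeq2 (34 higher, 18 lower). Leaving out 1 sample at a time gave 0 to 7 members lower in knockout, medians of -0.55 to 0.21, and log2 fold changes of -0.43 to 0.34 for mt-Nd1, -0.49 to 0.19 for mt-Nd2, -1.16 to 0.12 for mt-Nd3, -0.89 to 0.23 for mt-Nd4, -0.70 to 0.17 for mt-Nd6, -1.07 to 0.061 for mt-Cytb, -0.13 to 0.55 for mt-Co1 and 0.26 to 0.62 for mt-Nd5. The value 0 of 8 lower arose without wild-type sample 1, and the difference in summed share, -0.0368 percentage points, then became 0.0351. mt-Nd1 turned to 0.044 under upper-quartile scaling, 0.0031 with library size and 0.044 with limma-voom, and the cause was not tested. The median of all genes was 0.09 under upper-quartile scaling, 0.07 with library size and 0.20 with limma-voom, against -0.03 under TMM, and the members' median stayed below it each time (-0.09, -0.12 and -0.07). With the replicate block the members' median was -0.22, with 6 lower and 0 called. Same-numbered samples did not deviate together (correlations of -0.0027, -0.0154 and -0.0293 over 6506 genes), so the numbers only name them. mt-Nd3 as a percentage of mt-Cytb went from 0.356 per kb to 19.8 per unshared window, by construction of the divisor. mt-Nd3 was not tested at a mean of 5 CPM or more. Scaling by spike-ins, and counting read positions on the whole genome, were not run.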

Other observations

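In reads before any scaling, 4 mitochondrial transfer RNAs had more reads in every knockout sample than in any wild-type sample. They were singled out after their values were seen. mt-Tt, the threonine tRNA directly after mt-Cytb, had 4, 1 and 1 reads in wild type against 43, 26 and 24 in knockout (edgeR log2 fold change 3.21, SE 1.30, unadjusted p = 0.0394, adjusted p = 0.9999). mt-Tp, the proline tRNA next to it on the light strand, had 18, 11 and 6 against 103, 50 and 40 (log2 fold change 1.88, SE 1.36, edgeR unadjusted p = 0.208, adjusted p = 0.9999), and its TMM-scaled levels overlapped between genotypes. mt-Tl1, a leucine tRNA between mt-Rnr2 and mt-Nd1, had 1, 1 and 10 against 66, 20 and 51 (log2 fold change 3.19, SE 1.39, edgeR unadjusted p = 0.0522, adjusted p = 0.9999). mt-Tg, the glycine tRNA directly before mt-Nd3, had 0, 0 and 0 against 9, 5 and 8 and was too low to be tested.

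Over all 22 tRNA entries the reads summed to 186, 120 and 146 in wild type against 322, 176 and 233 in knockout, so the genotypes overlapped. The 18 entries other than the 4 above went the other way. They summed to 163, 107 and 129 reads in wild type against 101, 75 and 110 in knockout, also with overlap. Raw counts lay apart and higher in knockout for 4 of the 16 tRNA entries with a read and lower for 0, where 4.62% and 1.18% of the 22005 genes with a read did so. Depth differed 2.15-fold between samples, and after TMM scaling mt-Te, mt-Tg, mt-Tl1 and mt-Tt lay apart higher and mt-Tq lower. Of the 7 tested entries 2 were then higher and 1 lower, where 5.97% and 5.19% of all tested genes were. Of the 22 entries, 6 had 0 reads in all samples and 7 were tested, with 0 called. Those 7 were 4 lower and 3 higher in knockout (median log2 fold change -0.42), but 3 and 4 with limma-voom (0.22). Without wild-type sample 1, 8 were tested, with 3 lower and 5 higher (0.48). Whether reads that span a tRNA and its neighbour entered these counts was not tested.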
